A study of Mus musculus with 38 samples.

Results

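The proteasome genes described here are all genes whose annotated symbol starts with Psma, Psmb, Psmc or Psmd followed by a number. The rule matched 40 genes, carried by 80 probe sets, of 17729 genes tested, and where a gene had several, the one with the highest mean over the arrays was used. Psmb8, Psmb9 and Psmb10, the inducible subunits of the immunoproteasome, are given apart from the other 37. Psmc3ip, a meiotic recombination factor, was matched by its name and is not a subunit.

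RNA was from livers of male CD-1 mice, which are outbred, aged 6 to 8 weeks, with 1 array per animal and 38 arrays in all. In a conazole experiment, 3 mice per group ate control feed, feed with propiconazole at 2500 ppm or feed with triadimefon (spelt tridimefon in the labels) at 1800 ppm, for 4 or 30 days. In a phenobarbital experiment with its own controls, 5 mice per group ate control feed or feed with phenobarbital at 850 ppm for the same times. Propiconazole and triadimefon are triazole fungicides, and phenobarbital is a barbiturate that activates the nuclear receptor CAR in rodent liver. The labels give mean intakes of 349.6 ± 46.7 mg/kg/day for propiconazole, 257.1 ± 33.5 for triadimefon and 97.2 ± 5.9 for phenobarbital, so doses differed between compounds. Both conazoles share their controls on each day. The experiment and the batch of arrays cannot be told apart. The series title sets tumorigenic triazole conazoles against phenobarbital, and the comparisons below address that contrast for the proteasome genes.

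The proteasome is the protease that degrades proteins tagged with ubiquitin. Its core particle is a stack of rings, in which alpha subunits form the gated outer rings and beta subunits the inner rings, with the proteolytic sites in Psmb5 (chymotrypsin-like), Psmb6 (caspase-like) and Psmb7 (trypsin-like). The regulatory particle has a base of ATPases (Psmc genes) and non-ATPase subunits that unfold substrates, and a lid whose enzyme Psmd14 removes ubiquitin. In many cells the subunit genes rise together when proteasome activity is short, through the transcription factor Nfe2l1, and interferon replaces the catalytic subunits with Psmb8, Psmb9 and Psmb10.

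Values are log2(intensity + 16) after quantile normalization of the deposited intensities, with a floor of 4, and a change is a difference on that scale, so that changes of dim genes are understated. Errors of changes are standard errors, errors of group means are SDs, and adjusted p is from limma with Benjamini-Hochberg adjustment over all 17729 genes. A gene is said to have risen or fallen where adjusted p was under 0.05. Background was set at a log2 value of 6.13, below which 95% of 39 olfactory receptor genes had their means. Of the 40 members, 37 had a mean above it, 34 of them constitutive subunits or chaperones and 3 the immunoproteasome subunits. Psma8, the testis form of an alpha subunit, and Psmb11, the thymus form of a catalytic subunit, were below background on all 38 arrays, and Psmc3ip was above it on 14. The 5 measured hepatocyte markers were far above background on every array, as the label liver requires. In whole liver, fewer cells of a type and less RNA per cell cannot be told apart.

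The array of propiconazole day 4 replicate 2 stood apart. Its median deposited intensity of 12.5 was the lowest (other arrays 19.2 to 36.1), and its 3′ probes for Gapdh read 6.39 log2 units above the 5′ probes, a difference of -0.37 to 0.22 elsewhere. For Actb the difference was 1.84 (0.28 to 1.3 on the remaining 37 arrays). All groups share 1 estimate of the spread, so this array enters the errors of every comparison, and the propiconazole day 4 calls are given below with and without it. The replicates are called biological in the labels. The p-values rest on the spread within all 10 groups of both experiments, not on that of the compared animals alone. For Psmb5 the pooled SD was 0.1, where on day 4 the SD was 0.02 in phenobarbital controls and 0.03 under phenobarbital.

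Under both conazoles on day 4, genes of the core and of the regulatory particle rose in small steps, none by more than 1.54-fold above background. Under propiconazole on day 4, 13 of the 40 members rose and 0 fell, where 7.36% of all genes tested rose and 6.53% fell (10% of genes above background rose). After 30 days of propiconazole 5 rose and 0 fell (5.29% of all genes rose and 5.53% fell). Under triadimefon 6 rose and 0 fell on day 4 (2.1% of all genes rose and 1.65% fell), and 1 rose and 0 fell on day 30 (2.41% and 3%). Under phenobarbital 0 members were called on either day by limma, where 0.53% of all genes rose and 0.147% fell on day 4, and 0.395% and 0.0846% on day 30. Among genes above background, 6.57% rose under propiconazole on day 30, 2.64% and 3.42% under triadimefon on day 4 and day 30, and 0.762% and 0.569% under phenobarbital. At an unadjusted p under 0.05 the phenobarbital counts were 5 members on day 4 and 1 on day 30. These and the later counts at an unadjusted p have no share of all genes beside them, and nothing is concluded from them. The contrast between compounds in these counts depended on the shared spread. In fits of only the arrays compared, 0 members were called under either conazole on day 4 (8 and 0 of all genes). On day 30 of propiconazole and triadimefon 2 and 0 were called (273 and 63 of all genes). Phenobarbital then had 1 on day 4 and 3 on day 30 (328 and 237 of all genes), all higher.

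**Figure D1:**
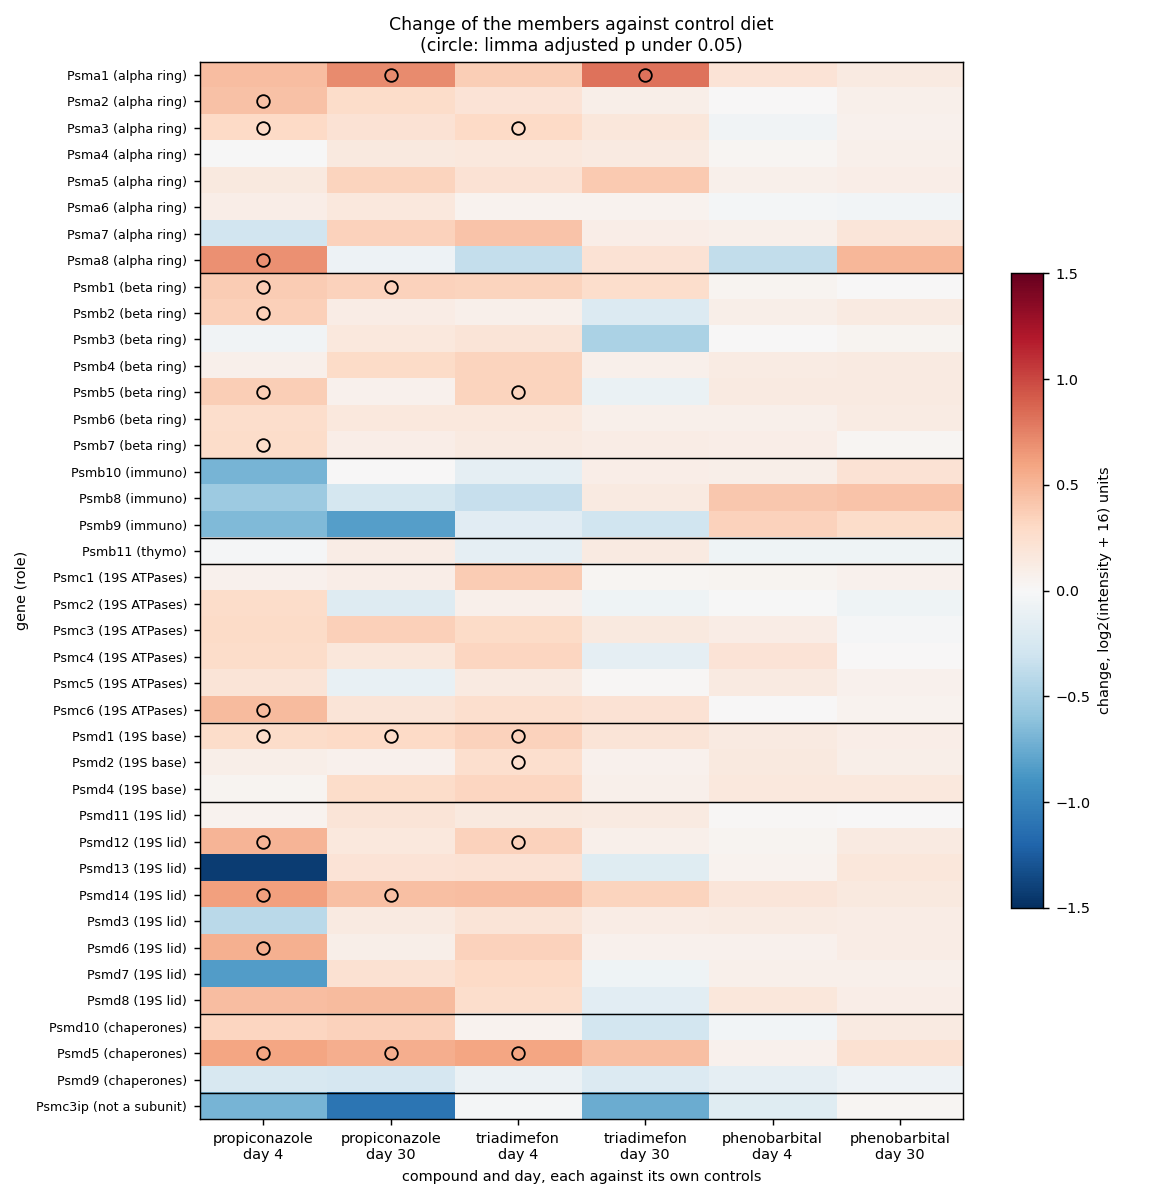
Change of each of the 40 members against its own controls (colour, log2 units, red higher and blue lower than controls) by compound and day (columns), with genes in rows ordered by role and circles where limma's adjusted p was under 0.05. The 25 circles, from the fit of all 38 arrays, are all on red cells and only in the conazole columns. Fits of only the arrays compared gave other calls. The darkest blue cell is Psmd13 under propiconazole on day 4 (-1.42, not called).

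Over the 34 constitutive members above background, the median change was 0.28 under propiconazole and 0.25 under triadimefon on day 4, where the median over all genes was 0.03 and 0. On day 30 the median was 0.19 under propiconazole and 0.08 under triadimefon, and under phenobarbital it was 0.08 on day 4 and 0.09 on day 30, where the median over all genes was 0 in each. The change was above 0 in 27 and 33 of the 34 members on day 4 (propiconazole, triadimefon), in 31 and 24 on day 30, and in 27 and 30 under phenobarbital on day 4 and day 30. Triadimefon on day 4 was thus the comparison with the most members above 0, although fewer of them were called than under propiconazole. These counts describe the list, and members measured on the same arrays are not independent. The day 4 values depended on the scaling: without quantile normalization the median of all genes moved to -0.16 under propiconazole and 0.17 under triadimefon, and that of the 34 members to 0.01 and 0.54. The members' median was above that of all genes under both compounds and both scalings. Over genes above background alone, the median was 0 under propiconazole and -0.01 under triadimefon with quantile normalization, and -0.29 and 0.25 without. Without quantile normalization, 0 members were called higher under propiconazole and 24 under triadimefon. All genes then split 225 higher to 2371 lower and 1562 to 112, against 1305 to 1158 and 373 to 292 with it.

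Separation of the arrays was read against the same measure over all genes. Treated arrays were all above all controls for 8 of the 40 members under propiconazole on day 4 (9.37% of all genes) and for 18 on day 30 (11.9%). Under triadimefon this held for 16 members on day 4 (10.5%) and 12 on day 30 (9.27%), and under phenobarbital for 4 on day 4 (2.88%) and 9 on day 30 (2.24%). Treated arrays were all below all controls for 1 and 3 members under propiconazole (6.85% and 12.4%), 0 and 4 under triadimefon (8.9% and 11.8%) and 1 and 0 under phenobarbital (2.22% and 1.97%), on day 4 and day 30. The low count under propiconazole on day 4 beside its 13 calls goes with the spread between its arrays, given next.

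**Figure D2:**
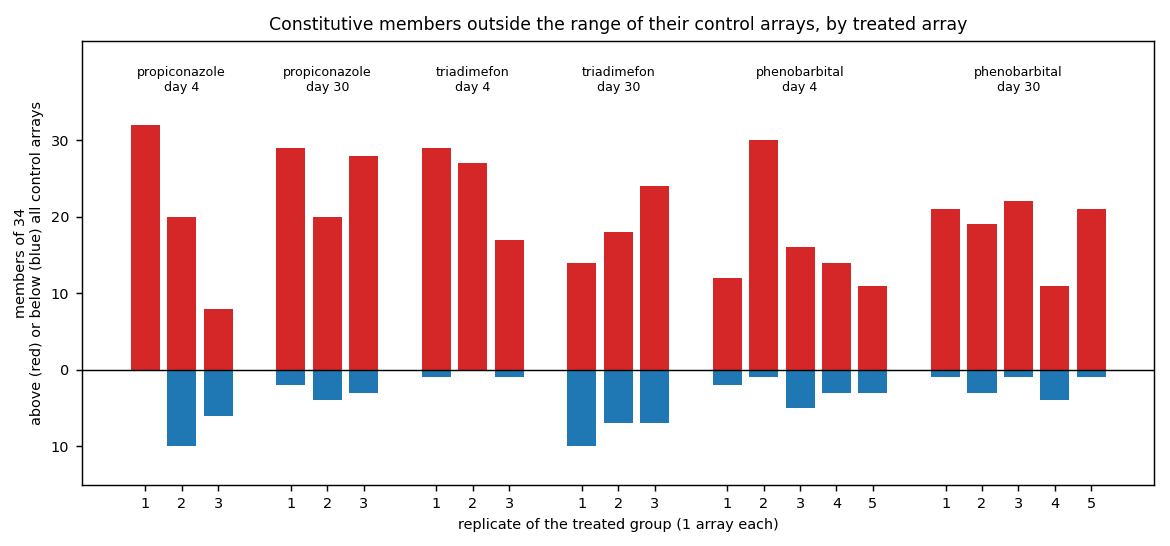
Number of the 34 constitutive members above (red, upward) or below (blue, downward) all control arrays of the same experiment and day, for each treated array (x axis, replicate number). Under propiconazole on day 4 the counts above were 32, 20 and 8 for replicates 1, 2 and 3, while the 3 triadimefon arrays of that day had 29, 27 and 17.

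Single arrays differed widely in how many members left the control range. On the propiconazole day 4 arrays 32, 20 and 8 of the 34 constitutive members were above all controls and 0, 10 and 6 below all controls. Replicate 1 was therefore high throughout, replicate 3 close to controls, and replicate 2 mixed. The median over the 34 members on these arrays was 10.94, 10.73 and 10.24, against 10.1 to 10.38 on the control arrays of that day. On day 30 the propiconazole arrays lay closer together, at 10.57 to 10.73 against 10.25 to 10.37 in controls.

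Without replicate 2 of propiconazole day 4, 9 members rose and 0 fell (4.5% of all genes rose and 4.91% fell), 8 of them among the 13, and Psmd8, a lid subunit, was added at 0.80 (adjusted p = 0.00025). The 5 calls lost were those of Psma2, Psma3, Psma8, Psmb7 and Psmc6. The median change stayed at 0.28 and 33 of the 34 constitutive members were then above 0. Among the lid subunits, Psmd13, Psmd7 and Psmd3 moved most. Outside the lid, Psma7 moved from -0.29 to 0.40 and Psmc3ip from -0.70 to 0.12. Psmd13 was at 9.40, 4.00 and 8.55 on the 3 propiconazole arrays and at 8.96, 8.69 and 8.56 in controls. Its change moved from -1.42 with all arrays to 0.24 without replicate 2, that of Psmd7 from -0.84 to 0.44 and that of Psmd3 from -0.41 to 0.15, and none of these 3 was called in either fit. Psmd13, Psmd7, Psmd3, Psma7 and Psmc3ip were named here after their values were seen.

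Leaving this array out of the shared spread also changed the counts of the other comparisons, a step chosen after the data were seen. Under propiconazole on day 30, 9 members then rose and 0 fell (7.17% and 8.61% of all genes), and under triadimefon on day 4 9 rose and 0 fell (3.91% and 3.31%). Under triadimefon on day 30 Psma1 rose and Psmb3 fell (4.16% and 5.48% of all genes). Under phenobarbital 0 members were called (0.981% and 0.412% of all genes rose and fell on day 4, 0.536% and 0.158% on day 30).

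Replicate 1 mattered as much. Without it, 7 members rose (10.6% of all genes) and 6 fell (8.64%), namely Psma7, Psmb3, Psmb10, Psmd3, Psmd7 and Psmd13, each of which had its lowest value of the group on replicate 2. The median change of the 34 members was then 0.13. Without replicate 3, 19 rose (11.6%) and 2 fell (10.2%), with a median of 0.38. Psmb2, Psmb5, Psmd12, Psmd14 and Psmd6 were called higher in all 3 of these fits, and also without each control.

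The other conazole counts rested on single arrays too. With all arrays, 373 of all genes rose and 292 fell under triadimefon on day 4, and 937 and 980 under propiconazole on day 30. Under triadimefon on day 4, 0 members were called without treated replicate 1 or 2 (216 and 468 of all genes). Without treated replicate 3, 11 were called (852 of all genes). Without control replicate 2 the count was 1 (333 of all genes), and without control replicate 3 it was 3 (638). Under propiconazole on day 30, 1 member was called without treated replicate 3 (1454 of all genes). Without treated replicate 1 or control replicate 1 the count was 3 (1772 and 1478 of all genes). Without control replicate 2 or 3 it was 2 (1435 and 1277 of all genes). Psma1 was among the called members each time on day 30. Of the triadimefon day 4 calls, Psmd5 was lost in 5 of 6 such fits, Psma3, Psmb5 and Psmd2 in 4, Psmd12 in 3 and Psmd1 in 2.

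**Figure D3:**
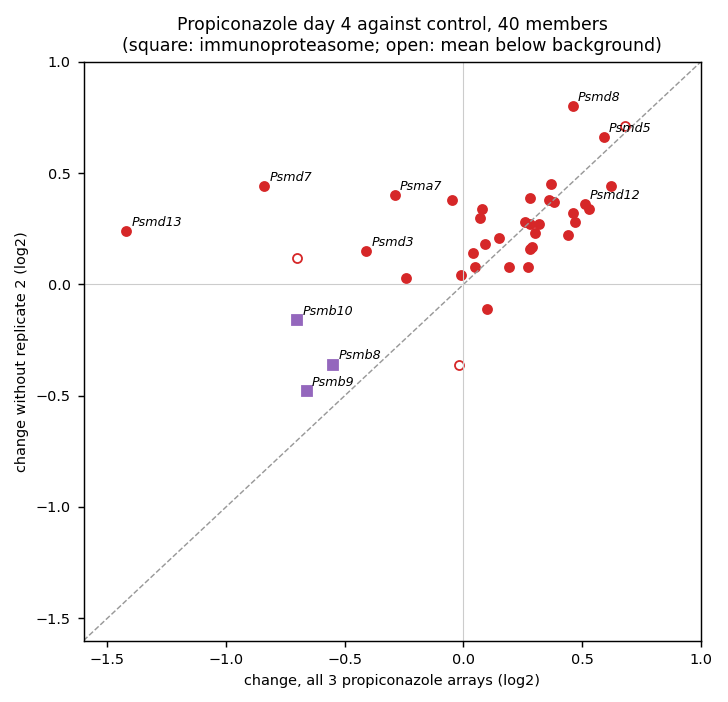
Change of the 40 members under propiconazole on day 4 with all 3 treated arrays (x axis, log2) and without replicate 2 (y axis, log2), with the dashed line where both are equal, squares for the immunoproteasome subunits and open circles for genes with a mean below background. Psmd13, Psmd7 and Psmd3 lie far left of the line, at -1.42, -0.84 and -0.41 on the x axis and 0.24, 0.44 and 0.15 on the y axis.

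Among the 8 alpha ring genes, 3 rose under propiconazole on day 4, 1 on day 30 and 1 in each triadimefon comparison. Psma1, an alpha subunit of the core, had the largest called rise of any subunit above background. On day 30 it was at 11.11, 10.72 and 11.07 under propiconazole and at 11.11, 11 and 11.12 under triadimefon, against 10.52, 9.97 and 10.29 in the shared controls. Every treated array was above every control array, and the controls themselves ranged from 9.97 to 10.52. The rise was 0.71 ± 0.17 (1.64-fold, adjusted p = 0.0051) under propiconazole and 0.82 ± 0.17 (1.76-fold, adjusted p = 0.0035) under triadimefon.

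Psma1 was not called on day 4, when propiconazole arrays were at 11.44, 11.31 and 10.32, and controls at 10.65, 10.43 and 10.61 (0.46 ± 0.17, adjusted p = 0.063). Under phenobarbital it was at 10.88 to 11.16 on day 30 against 10.78 to 10.87 in controls (0.14 ± 0.13, adjusted p = 1). The other 3 probe sets of the gene had means below background, and with the mean of all 4 probe sets the day 30 changes were 0.38 and 0.31 and not called (adjusted p = 0.12 and 0.29). Psma2 and Psma3, further alpha subunits, rose under propiconazole on day 4 by 0.44 ± 0.12 (adjusted p = 0.017) and 0.30 ± 0.08 (adjusted p = 0.014). Without replicate 2 neither was called, at 0.22 (adjusted p = 0.21) and 0.23 (adjusted p = 0.083). Psma3 rose by the same 0.30 ± 0.08 under triadimefon on day 4 (adjusted p = 0.03). Psma8 was called under propiconazole on day 4 although it was below background in both groups, so no fold is given, and its call was lost without replicate 2 (adjusted p = 0.074).

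Of the 7 constitutive beta ring genes, 4 rose under propiconazole on day 4, 1 on day 30 and 1 under triadimefon on day 4. Psmb5, the chymotrypsin-like subunit, was at 11.68, 11.16 and 11.08 under propiconazole and 11.29, 11.33 and 11.16 under triadimefon on day 4, against 10.94, 10.90 and 10.95 in controls. All 6 treated arrays were above all 3 controls, and propiconazole replicate 1 was highest. The rise was 0.37 ± 0.08 (1.3-fold, adjusted p = 0.0037) under propiconazole and 0.33 ± 0.08 (1.26-fold, adjusted p = 0.025) under triadimefon. On day 30 its change was 0.06 ± 0.08 and -0.10 ± 0.08, with arrays at 11.11 to 11.26 and 10.95 to 11.07 against 11.05 to 11.19 in controls. The triadimefon change of Psmb5 was lower on day 30 than on day 4 by -0.43 ± 0.12, which missed the threshold (adjusted p = 0.064).

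Psmb5 was also the member whose phenobarbital arrays parted most cleanly from their controls. On day 4 they were at 10.85, 10.84, 10.86, 10.79 and 10.79 against 10.68, 10.71, 10.71, 10.67 and 10.69, and on day 30 at 10.82, 10.81, 10.86, 10.81 and 10.90 against 10.73, 10.65, 10.69, 10.73 and 10.72. No treated array overlapped a control on either day. The change was 0.13 ± 0.07 on both days (adjusted p = 0.51 and 0.76), and was called only when the fit held the arrays compared alone (adjusted p = 0.02 and 0.04).

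Psmb7, the trypsin-like subunit, was at 11.58, 11.95 and 11.58 under propiconazole on day 4 against 11.36, 11.45 and 11.44, with no overlap. It rose by 0.28 ± 0.08 (1.22-fold, adjusted p = 0.013), and without replicate 2, which held the highest value, it was at 0.16 and not called (adjusted p = 0.13). Psmb6, the caspase-like subunit, ranged from 11.06 to 11.71 against 10.99 to 11.26 and was not called (0.26 ± 0.09, adjusted p = 0.056). In the other conazole comparisons Psmb6 and Psmb7 changed by 0.08 to 0.16 without a call. The structural beta subunits Psmb1 and Psmb2 rose under propiconazole on day 4 by 0.38 ± 0.11 (adjusted p = 0.016) and 0.36 ± 0.09 (adjusted p = 0.0056), and remained called without replicate 2 (0.37 and 0.38). Psmb1 rose by 0.34 ± 0.11 on day 30 (adjusted p = 0.039). Psmb1 has 2 further probe sets above background, which changed by 0.05 to 0.99 on day 4 and 0.49 to 1.43 on day 30, of like sign but unlike size.

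Among the 6 ATPase genes of the base, Psmc6 alone rose, under propiconazole on day 4 (0.47 ± 0.13, adjusted p = 0.019), and its 2 further probe sets above background both changed by 0.35. Without replicate 2 its change was 0.28 and not called (adjusted p = 0.18). Of the 3 non-ATPase genes of the base, Psmd1 and Psmd2, the scaffold and ubiquitin-binding subunits, were called. Psmd1 was at 10.96, 10.83 and 10.59 under propiconazole and 10.95, 10.89 and 10.70 under triadimefon on day 4, against 10.51, 10.53 and 10.48 in controls. It was at 10.77, 10.86 and 10.92 under propiconazole on day 30 against 10.56, 10.59 and 10.52. In all 3 comparisons every treated array was above every control, and the controls lay close together.

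Psmd1 rose by 0.28 ± 0.08 (adjusted p = 0.016) and 0.30 ± 0.08 (adjusted p = 0.014) under propiconazole on day 4 and day 30, and by 0.34 ± 0.08 (adjusted p = 0.015) under triadimefon on day 4. On day 30 of triadimefon it was again above all controls, at 10.66, 10.79 and 10.78, without a call (0.19 ± 0.08, adjusted p = 0.18). Psmd2 rose by 0.25 ± 0.07 under triadimefon on day 4 (1.19-fold, adjusted p = 0.048).

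Psmd14, the deubiquitinating enzyme of the lid, and Psmd6 and Psmd12, which are structural lid subunits, rose under propiconazole on day 4. Psmd14 was at 10.85, 11 and 10.08 against 10.11, 9.91 and 10.04 in controls, so that replicate 3 fell within the control range. It rose by 0.62 ± 0.14 (1.54-fold, adjusted p = 0.0033), and by 0.44 without replicate 2 (adjusted p = 0.039). On day 30 its propiconazole arrays were at 10.69, 10.57 and 10.71 against 10.16, 10.12 and 10.36, all above controls, and it rose by 0.45 ± 0.14 (adjusted p = 0.034). Under triadimefon on day 4 Psmd14 was at 10.63, 10.57 and 10.24, also above all controls, with a change of 0.46 ± 0.14 that missed the threshold (adjusted p = 0.056).

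Psmd6 was at 10.68, 11.04 and 10.27 under propiconazole on day 4 against 10.17, 10.07 and 10.18, with no overlap and the highest value on replicate 2. It rose by 0.53 ± 0.10 (1.44-fold, adjusted p = 0.0013), and its other probe set above background changed by 0.63. Without replicate 2 the rise of Psmd6 was 0.34 (adjusted p = 0.013). Psmd12 was at 10.61, 10.86 and 10.20 under propiconazole and 10.41, 10.47 and 10.27 under triadimefon, against 10.18, 9.80 and 10.15 in controls. Control replicate 2 was low, and the lowest propiconazole array, at 10.20, was barely above the highest control, at 10.18. Psmd12 rose by 0.51 ± 0.10 (1.43-fold, adjusted p = 9e-04) under propiconazole and 0.34 ± 0.10 (1.27-fold, adjusted p = 0.044) under triadimefon, and the triadimefon call was lost without that control (0.22).

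Psmd5, a chaperone that assembles the base and is not part of the finished particle, rose in 3 comparisons. On day 4 it was at 10.08, 9.22 and 8.79 under propiconazole and 9.31, 9.48 and 9.29 under triadimefon, against 8.86, 8.81 and 8.66 in controls. All triadimefon arrays were well above controls, whereas propiconazole replicate 3 was within them. The change was 0.59 ± 0.16 (1.5-fold) under both compounds (adjusted p = 0.015 and 0.036), and without propiconazole replicate 1 it was 0.22 and not called (adjusted p = 0.14).

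On day 30 Psmd5 was at 9.47, 9.62 and 9.68 under propiconazole against 9.04, 9.01 and 9.05, a rise of 0.55 ± 0.16 (adjusted p = 0.023), and at 9.48, 9.35 and 9.62 under triadimefon, where it was not called (0.45 ± 0.16, adjusted p = 0.1). The day 30 controls lay close together and no treated array came near them. Psmd9 and Psmd10, the other base chaperones in the set, were not called against controls in any comparison, with changes of -0.28 to 0.34.

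**Figure D4:**
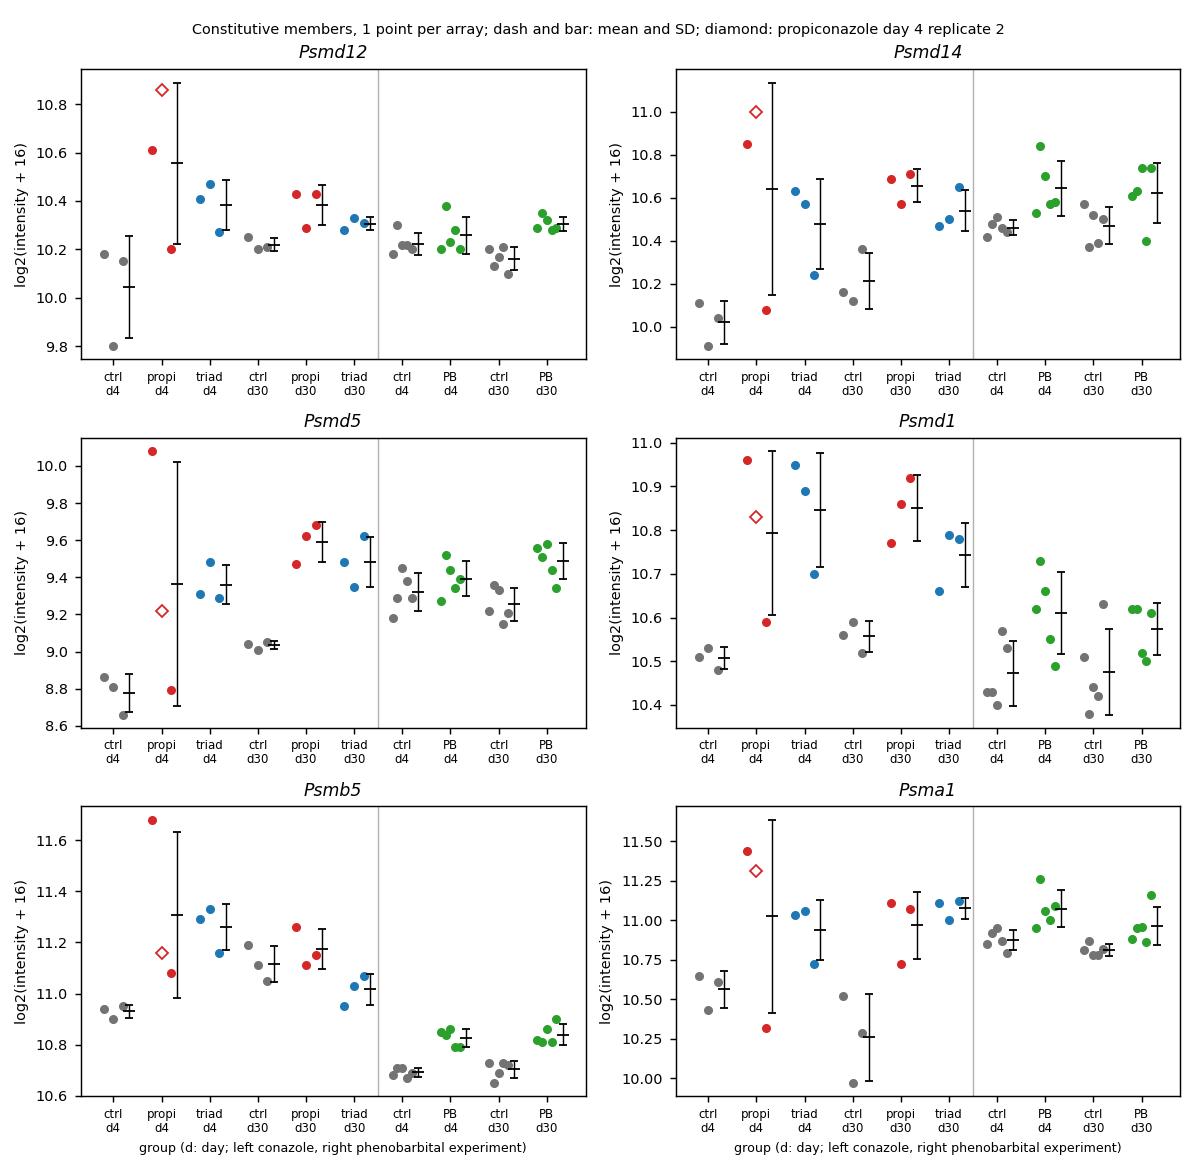
Values of Psmd12, Psmd14, Psmd5, Psmd1, Psmb5 and Psma1 on each array (points, log2 units) in the 10 groups, with mean and SD beside them and an open diamond for propiconazole day 4 replicate 2. Day 4 propiconazole values spread widely, as in Psmd5 from 8.79 to 10.08, while the day 4 and day 30 controls of Psmd1 and Psmd5 lie close together.

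Psmb8, Psmb9 and Psmb10, the catalytic subunits of the immunoproteasome, were not called in any comparison with controls. Psmb9 arrays were separated under propiconazole without a call. Psmb9 was at 7.69, 6.97 and 7.33 under propiconazole on day 4 against 8.23, 7.72 and 8.01 in controls. On day 30 it was at 7.15, 7.44 and 7.77 against 8.34, 8.47 and 8.04. Each propiconazole array was below each control on both days. The changes were -0.66 ± 0.38 (adjusted p = 0.26) and -0.83 ± 0.38 (adjusted p = 0.17), and on day 4 -0.48 without replicate 2. Psmb8 changed by -0.55 ± 0.37 and -0.26 ± 0.37 and Psmb10 by -0.70 ± 0.35 and 0.01 ± 0.35 under propiconazole on day 4 and day 30, with overlapping arrays.

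Within groups these 3 genes had an SD of 0.45 to 0.48, against a median of 0.16 over the 37 members above background and 0.23 over all 9314 genes above background. Of the other 34 members above background, Psmd13 (0.78) and Psmd7 (0.62) had a larger SD. Single arrays stood apart in the immunoproteasome genes. Under phenobarbital on day 30 replicate 5 was at 10.21 for Psmb8, 10.85 for Psmb9 and 10.23 for Psmb10, while the other 4 arrays were at 8.89 to 9.19, 8.81 to 9.17 and 9.16 to 9.40. On day 4 of phenobarbital replicate 2 was at 10.40 for Psmb8 and 10.14 for Psmb9, against 9.16 to 9.29 and 8.85 to 9.35 on the others.

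**Figure D5:**
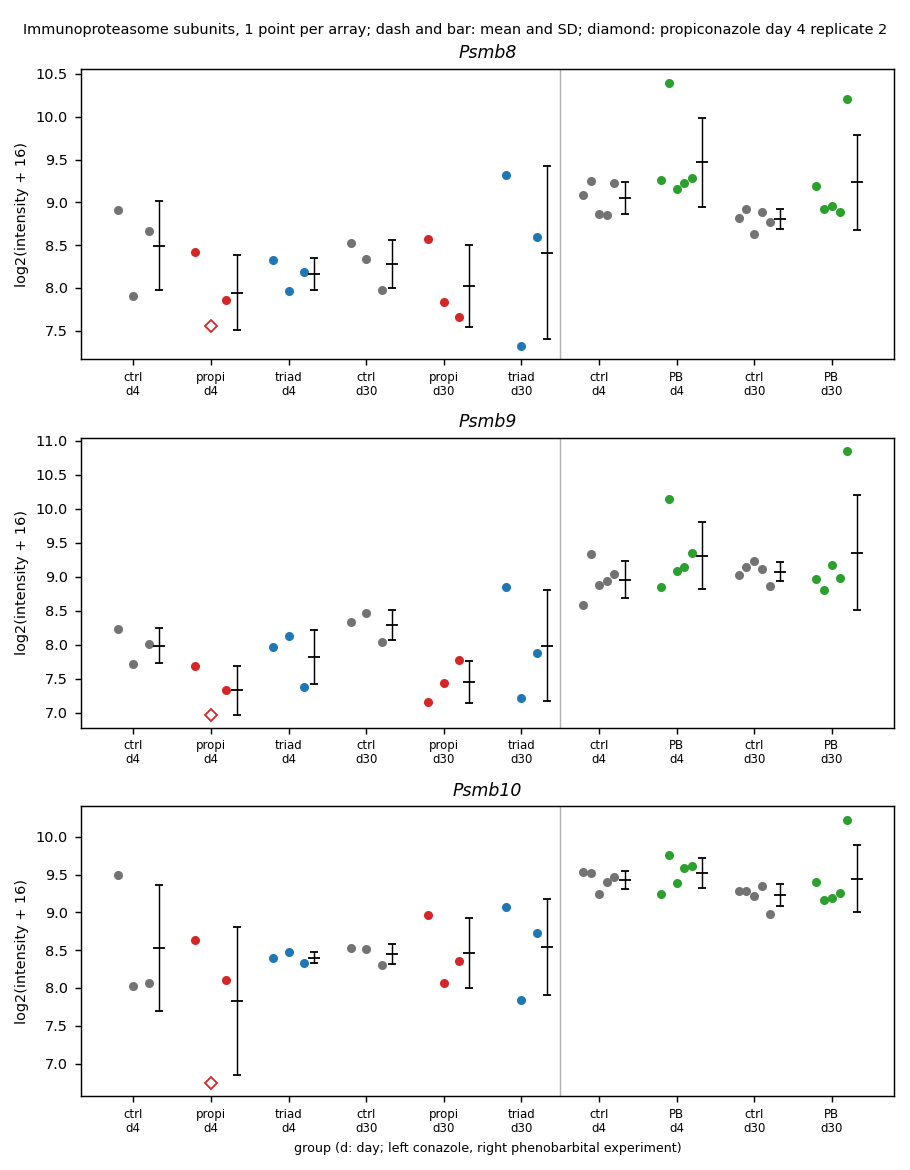
Values of Psmb8, Psmb9 and Psmb10 on each array (points, log2 units) in the 10 groups, with mean and SD beside them and an open diamond for propiconazole day 4 replicate 2. A single phenobarbital array stands above its group on day 30 in all 3 genes, at 10.21, 10.85 and 10.23, and triadimefon day 30 spans 7.32 to 9.32 for Psmb8.

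On the same arrays other interferon-responsive and antigen presentation genes were high. Of 20 such genes above background, 19 had their group's highest value on phenobarbital day 30 replicate 5, 18 on phenobarbital day 4 replicate 2 and 19 on triadimefon day 30 replicate 1. The summed intensity of the macrophage and antigen-presenting cell markers was 13900 on that phenobarbital day 30 array (7270 to 9920 on the other 4) and 25300 on that triadimefon array (5930 and 11600 on the others). On that phenobarbital day 4 array it was 8130, within the 4710 to 9120 of the controls of that day. Leaving the array out moved the changes of Psmb8, Psmb9 and Psmb10 from 0.43, 0.28 and 0.22 to 0.19, -0.10 and 0.02 under phenobarbital on day 30. The same step moved them from 0.41, 0.35 and 0.09 to 0.18, 0.15 and 0.03 under phenobarbital on day 4, and from 0.13, -0.30 and 0.10 to -0.32, -0.73 and -0.16 under triadimefon on day 30. None was called either way, and the part of immune cells in these values was not tested.

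The fall of Tap2, the peptide transporter encoded beside Psmb8 and Psmb9, was called under propiconazole on both days. Tap2 was at 5.99 ± 0.82 against 7.26 ± 0.38 on day 4 (-1.27 ± 0.31, adjusted p = 0.0071), with 2 of 3 treated arrays above background, and without replicate 2 it was at -0.82 and not called (adjusted p = 0.086). On day 30 it was at 5.33 ± 0.28 against 6.63 ± 0.31 (-1.30 ± 0.31, adjusted p = 0.0059), with 0 of 3 above. Tap1 did not fall with it under propiconazole, at -0.07 ± 0.40 on day 4 and 0.11 ± 0.40 on day 30 (adjusted p = 0.96 and 0.95). Of 22 interferon and antigen presentation genes measured, Irgm1 rose and Tap2 fell on day 4 of propiconazole (Irgm1 was not called without replicate 2, adjusted p = 0.068), and Tapbp and Cxcl9 rose and Tap2 fell on day 30. Beside these counts, 7.36% of all genes rose and 6.53% fell on day 4, and 5.29% and 5.53% on day 30. In the triadimefon and phenobarbital comparisons 0 of the 22 were called, with 3 to 9 at an unadjusted p under 0.05.

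The compounds were then set against each other, at doses that differed. Between propiconazole and triadimefon on day 4, Psma8 alone was called, below background in both (1.84% of all genes were called in either direction). The intervals of the difference for the members called against controls were wide enough to hold small differences: 95% confidence intervals ran from -0.13 to 0.22 for Psmb5, from -0.33 to 0.33 for Psmd5 and from -0.12 to 0.44 for Psmd14. On day 30 Psmb2, Psmd8 and Psmd10 were higher under propiconazole (3.9% of all genes were called).

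Psmd8, the lid subunit, was at 11.20, 11.23 and 11.14 under propiconazole and 10.57, 10.67 and 10.44 under triadimefon on day 30, with controls between, at 10.72, 10.69 and 10.73. The arrays of the 3 groups did not overlap, and the difference between compounds was 0.63 ± 0.17 (adjusted p = 0.026). Psmd10, also known as gankyrin, was at 7.72, 7.04 and 7.16 against 6.94, 6.49 and 6.63 (0.62 ± 0.16, adjusted p = 0.027). Psmb2 was at 10.38, 10.17 and 10.25 against 9.92, 9.99 and 9.94 (0.32 ± 0.09, adjusted p = 0.032). All 3 had separate arrays, and none was called against controls on that day. Leaving out 1 replicate in turn lost the call in 5 of 6 fits for Psmd8, 4 for Psmb2 and 3 for Psmd10.

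Psmb3, a structural beta subunit named after its values were seen, was at 9.42, 9.31 and 9.57 under triadimefon on day 30 against 9.88, 9.87 and 10.01, below all controls but not called (-0.48 ± 0.20, adjusted p = 0.16). Against phenobarbital, the propiconazole change on day 4 was larger for Psmd12 by 0.48 ± 0.12 (adjusted p = 0.041) and for Psma8, below background, by 1.05 ± 0.29 (adjusted p = 0.049), where 1.83% of all genes were called. Psmd12 was at 10.20, 10.38, 10.23, 10.28 and 10.20 under phenobarbital on day 4 and 10.18, 10.30, 10.22, 10.22 and 10.20 in its controls, overlapping throughout. Without propiconazole replicate 2 the difference for Psmd12 was 0.33 and not called (adjusted p = 0.15), and its call was lost in 11 of 16 fits that left out 1 replicate (12 of 16 for Psma8). In the other 3 differences between a conazole's and the phenobarbital change 0 members were called by limma (5 each at an unadjusted p under 0.05), where 1.92% of all genes were called for propiconazole on day 30, and 0.0451% and 0.451% for triadimefon on day 4 and day 30.

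Between days, 0 members had a called difference in change for any compound by limma (1.95% of all genes for propiconazole, 1.31% for triadimefon and 0.00564% for phenobarbital). The day 30 change minus the day 4 change had a median of 0 over the 34 constitutive members for propiconazole and 0.01 for phenobarbital, and of -0.14 for triadimefon, with 31 of 34 below 0. At an unadjusted p under 0.05, 5, 0 and 4 of the 34 differed for propiconazole, phenobarbital and triadimefon. Between control animals of day 30 and day 4, 0 members were called in either experiment (5 and 1 of the 40 at an unadjusted p under 0.05), where 5.32% and 0% of all genes were called in the conazole and phenobarbital experiments.

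The other genes of the pathway were counted in the same way. Of 11 measured activators, inhibitors and assembly factors, Psme3, a nuclear activator cap, and Psmg1, an assembly chaperone of the core, rose under propiconazole on day 4, by 0.55 ± 0.16 (adjusted p = 0.024) and 0.39 ± 0.09 (adjusted p = 0.006), which is 2 of 11 beside the 7.36% of all genes that rose. Without replicate 2 Psmg1 was called (0.34, adjusted p = 0.033) and Psme3 was not (0.29, adjusted p = 0.24). Psmg4 rose on day 30 (0.52 ± 0.17, adjusted p = 0.042), Psmg1 rose under triadimefon on day 4 (0.36 ± 0.09, adjusted p = 0.03), and 0 fell in any comparison with controls. These single genes of 11 stand beside 5.29% and 2.1% of all genes that rose. Of 13 measured ubiquitin and shuttling genes, 5 rose and 1 fell under propiconazole on day 4, and 2 rose and 0 fell in each of the other 3 conazole comparisons, beside 7.36% of all genes that rose in the first and 5.29%, 2.1% and 2.41% in propiconazole day 30, triadimefon day 4 and triadimefon day 30. Without replicate 2, Usp14 (0.61), Zfand2a (1.06) and Ufd1 (0.51) were called on day 4 of propiconazole, and Ubqln2 (0.21), Uchl5 (0.14) and Vcp (-0.12) were not. Under phenobarbital 0 were called.

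Usp14, the deubiquitinase that binds the base, was at 9.30 ± 0.23 under propiconazole and 9.09 ± 0.10 under triadimefon on day 4, against 8.6 ± 0.05 in controls (n = 3 each). It rose by 0.70 ± 0.09 (adjusted p = 6.9e-06) and 0.49 ± 0.09 (adjusted p = 0.0017), and under triadimefon on day 30 by 0.52 ± 0.09 (adjusted p = 0.00067). Zfand2a, an arsenite-inducible proteasome-associated protein, rose by 0.85 ± 0.20, 0.66 ± 0.20 and 0.97 ± 0.20 under propiconazole on day 4 and day 30 and triadimefon on day 4 (adjusted p = 0.0048, 0.028 and 0.0054). Without treatment Zfand2a was also higher in conazole controls of day 30 than in those of day 4 (0.77 ± 0.20, adjusted p = 0.019). Ufd1, a cofactor of the segregase Vcp, rose by 0.66 ± 0.15, 0.85 ± 0.15 and 0.56 ± 0.15 under propiconazole on day 4 and day 30 and triadimefon on day 30 (adjusted p = 0.0031, 0.00025 and 0.021). Vcp itself was called lower under propiconazole on day 4 (-0.87 ± 0.28), at 11.06 ± 1.29 against 11.92 ± 0.13, a group with a wide spread.

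Of 7 measured genes of transcriptional control, Mafg fell under propiconazole on day 4 (-0.73 ± 0.18, adjusted p = 0.0068), where 6.53% of all genes fell. Mafg is a small Maf partner of Nfe2l1 and Nfe2l2. Without replicate 2 its change was -0.44 and not called (adjusted p = 0.088). No other of the 7 was called against controls. Nfe2l1, the activator of subunit genes, changed by -0.50 ± 0.26 (adjusted p = 0.2) under propiconazole on day 4 and 0.29 ± 0.26 (adjusted p = 0.62) under triadimefon. Nfe2l2, the oxidative stress activator, changed by 0.44 ± 0.23 (adjusted p = 0.21) and -0.05 ± 0.23 (adjusted p = 0.97). On day 30 it changed by 0.67 ± 0.23 (adjusted p = 0.056) under propiconazole and 0.46 ± 0.23 (adjusted p = 0.27) under triadimefon. Nfe2l1 changed by -0.01 ± 0.26 and 0.04 ± 0.26 on that day. These are transcript levels and say nothing of the processed proteins.

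Markers of cell types were set beside these changes. The 5 hepatocyte markers had a median change of -0.10 to 0.06 over the 6 comparisons and 0 were called. Of 4 endothelial markers, Stab2 and Clec4g fell on day 4 of triadimefon. Of 4 stellate cell markers, Reln fell on day 4 of propiconazole (not called without replicate 2, adjusted p = 0.081) and Lrat fell on day 30. On day 30 of triadimefon, Ptprc alone of 11 leukocyte and lymphocyte markers rose (changes -0.51 to 1.45, median 0). Of 11 macrophage and antigen-presenting markers, Adgre1, Csf1r and Marco rose there (changes 0.51 to 2.59, median 0.98). The summed intensity of these 11 was 25300, 5930 and 11600 on the 3 treated arrays and 5400 to 7390 in controls. Under phenobarbital on day 30, Nkg7 alone of the 11 leukocyte and lymphocyte markers rose (changes -0.22 to 0.87, median 0.19). The summed intensity of the 4 endothelial markers was 1040 to 1620 under triadimefon and 1420 to 2980 in controls on day 4. Beside these marker counts, 1.65% of all genes fell on day 4 of triadimefon, and 6.53% and 5.53% on day 4 and day 30 of propiconazole. On day 30, 2.41% of all genes rose under triadimefon and 0.395% under phenobarbital. The part of these cell types in the proteasome changes was not tested.

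The sequences upstream of the genes are shown for Psmd12 and Psmb5, which were among the members called under both conazoles on day 4. Psma3, Psmd1 and Psmd5 were also called under both and are not shown. Their windows lack the motif marked in Psmd12 and Psmb5. Psma1 is shown as the member with the largest called rise on day 30, and Psmb8 as an immunoproteasome gene. Each sequence shown is the 250 bases before the gene start, 5′ to 3′ on the gene's own strand, from RefSeq (GRCm38.p6). Capitals mark matches to the searched motifs, on either strand, that lie within these bases. In Psmd12 (chr11:107479278-107479527, plus strand) and Psmb5 (chr14:54617996-54618245, minus strand) they mark the core of the antioxidant response element, the site of the Nfe2l1 and Nfe2l2 family. In Psma1 (chr7:114276117-114276366, minus strand) they mark CCAAT boxes, and in Psmb8 (chr17:34197945-34198194, plus strand) the GAS motif, an interferon-response element.
Psmd12: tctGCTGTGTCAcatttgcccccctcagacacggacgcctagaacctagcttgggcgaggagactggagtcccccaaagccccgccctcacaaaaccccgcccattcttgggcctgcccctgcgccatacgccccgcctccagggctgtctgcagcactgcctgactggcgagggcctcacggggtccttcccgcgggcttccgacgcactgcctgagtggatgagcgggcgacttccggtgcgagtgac
Psmb5: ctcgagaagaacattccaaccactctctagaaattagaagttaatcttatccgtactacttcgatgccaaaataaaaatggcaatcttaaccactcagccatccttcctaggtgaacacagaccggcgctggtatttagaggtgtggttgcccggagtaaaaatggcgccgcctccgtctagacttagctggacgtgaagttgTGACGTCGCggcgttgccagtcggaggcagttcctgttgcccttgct
Psma1: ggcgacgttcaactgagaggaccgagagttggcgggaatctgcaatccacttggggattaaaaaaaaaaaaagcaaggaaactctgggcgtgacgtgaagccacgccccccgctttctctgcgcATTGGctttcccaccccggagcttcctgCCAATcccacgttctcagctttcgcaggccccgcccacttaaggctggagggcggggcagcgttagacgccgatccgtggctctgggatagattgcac
Psmb8: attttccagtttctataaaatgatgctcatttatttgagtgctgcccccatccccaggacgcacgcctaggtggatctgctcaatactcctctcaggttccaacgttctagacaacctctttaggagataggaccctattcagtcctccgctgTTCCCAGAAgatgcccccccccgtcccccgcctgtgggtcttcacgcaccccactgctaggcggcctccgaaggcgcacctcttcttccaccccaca

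Windows of 250 bases before to 50 after the start were at hand for 33 of the 40 members and 27025 genes in all. The motif TGACNNNGC was in the windows of 5 of the 33 members (15.2%), Psmb5, Psmb6, Psmc6, Psmd12 and Psmd9, and in 14% of all genes. Of these 5, Psmb5, Psmc6 and Psmd12 were called under propiconazole on day 4, Psmb6 was not and Psmd9 changed by -0.24. The Psmc6 call was lost without replicate 2 (adjusted p = 0.18). Psma2, Psma3, Psmd1, Psmd5, Psmd6 and Psmd14 were called in the same comparison without this motif in their windows. The other called members, Psma8, Psmb1, Psmb2 and Psmb7, had no window. Whether the motif goes with the rise was not tested. CCAAT was in 42.4% of members and 41.1% of all genes, TTCNNNGAA (GAS) in 6.06% and 9.55%, and the core of the interferon-stimulated response element in 9.09% and 3.99%, which is 3 members. All were searched on both strands. A match describes letters only, and the share of each motif but the last was close to or below that of all genes.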

How the data were processed

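The deposited table held 1 linear intensity per probe set and array for 45101 probe sets and 38 arrays, and 21.15% of the intensities the authors deposited were below 0. Tissue was extracted with Tri Reagent and an RNeasy kit and RNA labelled with biotin, per the labels' protocols. Array software was not given in the sources used here. Arrays were brought to 1 distribution by quantile normalization, negative intensities were replaced by 0, and the log2 of intensity + 16 was used. The platform annotation named 35890 probe sets. Those with 1 symbol (34958) gave 18194 genes, of which 465 with constant values were left out and 17729 tested.

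The test was limma 3.58.1 (R 4.3.3) on the 38 arrays together, with 1 coefficient per group (eBayes with intensity trend, 28 residual and 2.91 prior degrees of freedom), and 17 two-sided comparisons were made. Adjusted p is Benjamini-Hochberg over all 17729 genes. The script was tested on simulated data. For arrays, precision is limited by their number.

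The members and gene lists were chosen with earlier results of these data known. Every member called against controls is named. Array values are given for the 3 largest called changes per comparison above background, for Psmb5, Psmb6 and Psmb7 where called, and for the immunoproteasome subunits, whose uncalled values are mostly ranges. Psmd1, Psmd12, Psmb2, Psmb3, Psmd8 and Psmd10 are given by array beyond this rule where their values call for it. Pathway genes are named by size among those called, up to 3 per direction. Tried alternatives were other scalings, offsets of 4 and 64, a filter on low values, the mean of all probe sets, no trend, a replicate block, a fit on only the arrays compared and each replicate left out. Deviations from group means correlated at -0.11 to 0.16 between same-numbered arrays, and the main fit used no pairing. For propiconazole against control on day 4 the mean was 0.08, against -0.04 between arrays of other numbers. With 3 or 5 pairs per comparison, this cannot decide whether the numbers pair the animals. Protein sequences were not used here.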

Additional observations from a re-analysis of the deposited data

Results flagged for a closer look

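In groups of 5, some arrays lay far from the other 4. For Psmb8, phenobarbital day 4 replicate 2 was at 10.40 (others 9.16 to 9.29) and phenobarbital day 30 replicate 5 at 10.21 (others 8.89 to 9.19). The latter array was also at 10.85 for Psmb9 (others 8.81 to 9.17) and 10.23 for Psmb10 (others 9.16 to 9.40). For Psma2, phenobarbital day 4 replicate 2 was at 10.78 (others 10.52 to 10.59). For Psmb6, replicate 2 of the phenobarbital controls on day 4 was at 11.10 (others 11.04 to 11.06). In all 6 of 84 groups tested, from 21 members in 4 groups each, held such an array, and chance gives about 1 in 20. Of the 6, 5 came from phenobarbital day 4 replicate 2 and phenobarbital day 30 replicate 5, on which 18 and 19 of 20 interferon and antigen presentation genes were highest in their group.

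The change under propiconazole on day 4 differed from that under phenobarbital by a test of the difference itself for Psmd12 (0.48 ± 0.12, adjusted p = 0.041) and for Psma8 (1.05 ± 0.29, adjusted p = 0.049), which was below background on all arrays. Doses differed between the compounds, and each conazole change was taken against controls of its own experiment.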

How the results depend on the processing

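Counts below are members called of 40. With values as deposited they were 1 (Psmd9, lower) for propiconazole and 24 for triadimefon on day 4, 1 for propiconazole on day 30, 29 (1 higher, 28 lower) and 0 for propiconazole against triadimefon on day 4 and day 30, 3 (lower) for the triadimefon change between days, and 0 and 3 for the day 4 changes of propiconazole and triadimefon minus that of phenobarbital. With this scaling the median of all genes was -0.16 and 0.17 under propiconazole and triadimefon on day 4. Over genes above background it was -0.29 and 0.25, where the constitutive members' medians were 0.01 and 0.54. With median centring the same results were 4, 10, 3, 8, 1, 1 and, for propiconazole minus phenobarbital, 0, and 5 fell between control days of the conazole experiment; all genes then split 588 higher to 1202 lower under propiconazole and 580 to 174 under triadimefon on day 4, against 1305 to 1158 and 373 to 292. With only the arrays compared in the fit, counts were 0 for propiconazole and triadimefon on day 4, 2 and 0 on day 30, 1 and 3 for phenobarbital on day 4 and day 30, 0 for propiconazole against triadimefon on both days, and 0, 2, 1 and 5 for the propiconazole (day 4, day 30) and triadimefon (day 4, day 30) changes minus those of phenobarbital; fewer arrays then set the spread.

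For propiconazole minus phenobarbital on day 4 (2 in the report), the count was 1 with an offset of 4, with the filter, with the mean of all probe sets and with no trend. Propiconazole against triadimefon gave 0 on day 4 with the filter, which left out Psma8, and 5 on day 30 with the mean of all probe sets, which also gave 1 between conazole control days. Psma3 under propiconazole on day 4 had a change of 0 (adjusted p = 1) with that mean. The replicate block gave 2 for triadimefon on day 30, 1 for propiconazole against triadimefon on day 30 and 0 for propiconazole minus phenobarbital on day 4, and left the propiconazole day 4 count at 13.

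Leaving out 1 replicate in turn gave 9 to 21 for propiconazole and 0 to 11 for triadimefon on day 4 (0 without triadimefon replicate 1 or 2, 1 without control replicate 2, 3 without control replicate 3), and 1 to 4 and 1 to 2 on day 30 (1 without propiconazole replicate 3). The ranges were 0 to 7 and 0 to 1 for the changes between days of propiconazole and triadimefon, 0 to 14 for propiconazole minus phenobarbital on day 4, 0 to 13 and 0 to 2 for propiconazole against triadimefon on day 4 and day 30, 0 to 1 between conazole control days, and 0 for the other comparisons. In alternatives chosen after seeing the data, propiconazole day 4 replicate 2 was left out of the shared spread. Counts were then 9 for propiconazole on day 30, 2 for triadimefon on day 30 (Psma1 higher, Psmb3 lower), 2 for its change between days and 1 between conazole control days. With the other arrays normalized anew they were the same 9, 2, 2 and 1, with 2 for propiconazole against triadimefon and 1 for propiconazole minus phenobarbital on day 4.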
